A study of Mus musculus with 30 samples.

Results

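The transcripts of 40 genes of the cell cycle and of DNA replication were followed through 30 mouse thyroid libraries. The genes were given as a list of names, drawn up with earlier results of these data known. All 40 were found among the 50686 genes of the count files after Ensembl identifiers were matched to symbols. The libraries held poly(A) RNA of thyroids of C57BL/6 mice and formed 10 groups of 3. FAD4T males, wild-type males, FAD4T females and wild-type females were sampled at 2 months and again at 8 months of age. The remaining pair of groups, called the ageing set here, held males of the wild type at 18 months and at 2 months, the young ones titled with the numbers 4 to 6. The labels do not say what FAD4T stands for, which alleles these mice carry or what drives them, and they give no litter or day of dissection. The p-values therefore measure the spread between these mice.

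A cell that divides first licenses its replication origins with the Mcm2 to Mcm7 helicase, copies its DNA with Pcna as the sliding clamp, and then builds a spindle under the control of Cdk1 with its cyclins and of the Plk1 and Aurora kinases. Many genes of the later phases are silent in resting cells and are switched on together in S, G2 and M phase. Follicle cells of the adult thyroid divide rarely. Thymocytes, the T cell precursors of the thymus, pass through rounds of division between the stages at which Rag1, Rag2 and Dntt act on their receptor genes.

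Promoter windows of 4 members are shown, chosen for the steepest and the flattest of the slopes described below. Ube2c, which overlaps a muscle gene as described below, and Bub1 had the steepest slopes on the thymocyte transcripts, and Mcm2 and Pcna had the flattest among the members with a window in the RefSeq promoter table (GRCm38.p6), which matched 32 of the 40. Coordinates here and below are of GRCm38. Each window runs 5′ to 3′ from 250 bases before the transcription start to 30 bases after it. The window of Ube2c, which encodes the ubiquitin-conjugating enzyme of mitotic exit, lies at chr2:164769679-164769958, plus strand. The window of Bub1, a spindle checkpoint kinase, lies at chr2:127831830-127832109, minus strand. The window of Mcm2, a helicase subunit, lies at chr6:88898751-88899030, minus strand. The window of Pcna lies at chr2:132253151-132253430, minus strand. Capitals mark the letters TTTGAA or TTCGAA (the cell cycle homology region, CHR), CCAAT, and TTCCCGC or TTGGCGC (E2F site), searched on both strands. In Ube2c a forward and a reverse CCAAT match overlap.
Ube2c: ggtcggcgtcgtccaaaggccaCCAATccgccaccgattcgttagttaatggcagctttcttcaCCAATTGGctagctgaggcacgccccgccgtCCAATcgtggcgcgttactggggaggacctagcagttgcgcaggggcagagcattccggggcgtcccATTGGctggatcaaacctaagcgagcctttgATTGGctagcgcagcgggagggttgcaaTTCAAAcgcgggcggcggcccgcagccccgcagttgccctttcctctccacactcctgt
Bub1: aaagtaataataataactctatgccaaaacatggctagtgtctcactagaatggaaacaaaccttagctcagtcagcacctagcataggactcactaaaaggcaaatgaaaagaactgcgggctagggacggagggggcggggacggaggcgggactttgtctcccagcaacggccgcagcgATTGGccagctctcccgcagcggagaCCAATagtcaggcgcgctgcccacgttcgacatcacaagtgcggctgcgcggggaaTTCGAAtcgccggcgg
Mcm2: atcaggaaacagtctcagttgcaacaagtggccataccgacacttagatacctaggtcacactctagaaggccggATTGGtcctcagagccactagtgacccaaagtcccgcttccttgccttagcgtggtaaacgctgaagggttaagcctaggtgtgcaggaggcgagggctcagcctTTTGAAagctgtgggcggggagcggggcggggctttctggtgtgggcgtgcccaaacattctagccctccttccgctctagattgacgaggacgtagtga
Pcna: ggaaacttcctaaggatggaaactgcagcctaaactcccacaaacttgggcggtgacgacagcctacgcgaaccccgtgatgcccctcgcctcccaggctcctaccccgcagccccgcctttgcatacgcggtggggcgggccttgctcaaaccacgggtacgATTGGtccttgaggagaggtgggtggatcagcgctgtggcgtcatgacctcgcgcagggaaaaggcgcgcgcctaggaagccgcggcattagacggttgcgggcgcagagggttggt
The CHR letters were present in 56.2% of the 32 windows of the members and in 18.2% of all 19967 windows of 250 bases before and 50 after the start. CCAAT was present in 78.1% and 38.3%, and the E2F letters in 25.0% and 8.42%. Among the 19 windows of members that rose with the thymocyte transcripts 57.9% held the CHR letters, and among the 13 of members that did not pass 53.8% did. For CCAAT the shares were 78.9% and 76.9%, and for the E2F letters 31.6% and 15.4%. The flat Mcm2 window holds a CHR match as the steep Ube2c and Bub1 windows do, and the flat Pcna window holds none. These shares split the members by call and not by slope, as Mcm7 passed at 0.07 and Ttk did not at 0.47. Whether the CHR letters go with the slope was not tested. A match describes the letters only and is no evidence of binding.

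Libraries held 14083958 to 20256049 counts, and a count of 0 in a library allows up to 3 counts, which is 0.148 to 0.213 CPM (counts of a gene relative to the library total, scaled by TMM). This limit covers counting error only. The thyroid label held in every library: the level of 8 follicle cell markers, such as thyroglobulin, lay between 8.05 and 10.04, where a level is the mean of log2(CPM + 1) over a list. Markers of thymocytes, by contrast, set 5 libraries apart. The thymocyte level over Rag1, Rag2, Dntt, Ptcra, Cd8a, Cd8b1, Cd4 and Themis was 2.94 to 5.03 in these 5, all of them FAD4T, and 0.12 to 1.73 in the other 25, which include the remaining 7 FAD4T libraries. All 8 markers were detected in each of the 5, whereas among the other 25 Rag1 was at 0 in 15 libraries, Rag2 in 20, Ptcra in 15 and Dntt in 7. The summed CPM of the 8 was 70.6 to 366 in the 5 libraries and 0.784 to 25.5 in the rest. Thymic epithelium markers (Foxn1, Psmb11, Prss16, Ccl25, Aire, Tbata) were also higher there, with levels of 3.16 to 4.32 against 1.19 to 3.11. Results for the members are therefore given with and without the 5 libraries. The thyroids were measured in bulk, so fewer cells of a type and less RNA per cell cannot be told apart.

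Per length of transcript the 40 members differed widely in their usual level. Pcna had the highest median over the 30 libraries, 23.1 RPKM (CPM per kilobase of exons), followed by the helicase subunits Mcm6 at 7.46 RPKM, Mcm7 at 6.40 RPKM and Mcm4 at 4.43 RPKM. The mitotic genes lay much lower, with 0.381 RPKM for Mki67, 0.305 RPKM for Top2a and 0.0592 RPKM for Cenpf, a kinetochore protein. The most abundant members were among those that varied least. Pcna, Mcm7, Mcm2, Mcm6 and Mcm4 spanned 1.88-fold, 2.00-fold, 2.06-fold, 2.36-fold and 2.43-fold between the lowest and the highest library. Mki67 spanned 45.5-fold and Top2a 44.8-fold. The ratios of Ccnb1 (135), Cenpf (126), Ccnb2 (72.2), Bub1 (66.3) and Aurkb (43.7) rest on lowest libraries of 1 to 3 counts and are uncertain. Cdc25c and Ttk were at 0 in at least 1 library and allow no such ratio.

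The libraries with thymocyte transcripts also held the peaks of the mitotic genes. Replicate 2 of the FAD4T males of 2 months had the highest CPM of all 30 libraries for 31 of the 40 members. Its members' level was 3.58, against 1.81 to 2.24 (median 1.99) in the 25 libraries of low thymocyte level, and 35 members (87.5%) exceeded all 25, as did 11.8% of all genes tested. The next were replicate 2 of the FAD4T females of 2 months, with a level of 3.22 and 30 members (75%, against 15.8% of all genes), and replicate 1 of the same females, with 2.69 and 21 members (52.5%, against 16.8%). Replicate 1 of the FAD4T males of 8 months had a level of 2.72 and 20 members (50%) above all 25, against 1.83% of all genes. Replicate 3 of the FAD4T males of 2 months differed from these 4: its level was 2.08, inside the range of the 25, and 6 members (15%) exceeded them, against 14.5% of all genes. In this last library the members' share was therefore that of genes at large.

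**Figure D1:**
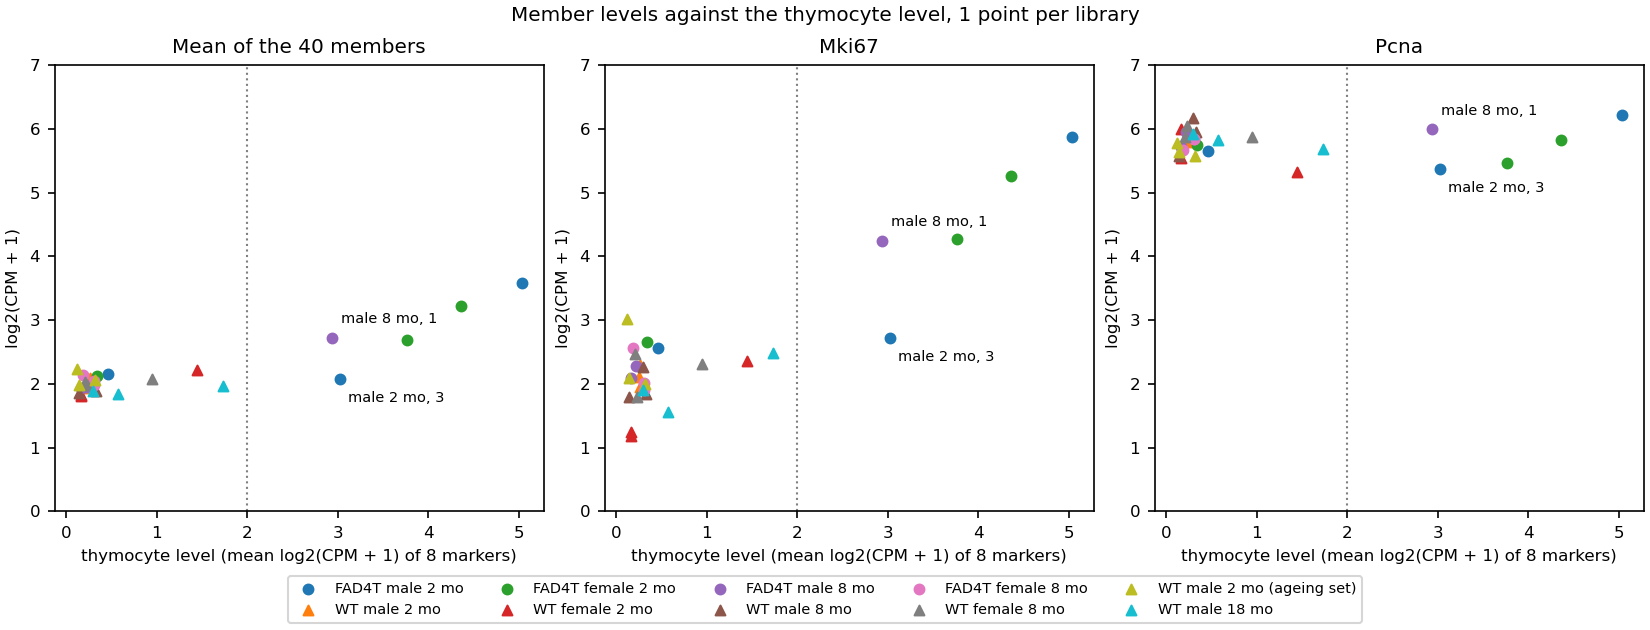
The mean log2(CPM + 1) of the 40 members, and log2(CPM + 1) of Mki67 and of Pcna, against the thymocyte level, 1 point per library, with circles for FAD4T and triangles for wild type and a dotted line at a thymocyte level of 2. The 5 libraries right of the line are all FAD4T. Mki67 climbs among them except in replicate 3 of the males of 2 months, and Pcna stays in the range of the other libraries in 4 of the 5.

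A pair of these libraries held about the same thymocyte level and different cell cycle levels. Replicate 3 of the FAD4T males of 2 months and replicate 1 of the FAD4T males of 8 months had thymocyte levels of 3.02 and 2.94. Mki67 (chr7:135689784-135716361, minus strand), which coats the chromosomes of dividing cells, was at 5.59 and 18.0 CPM in them. Top2a (chr11:98992943-99024189, minus strand), the topoisomerase that untangles sister chromatids, was at 2.68 and 13.3 CPM. Rag1, of the recombinase, ran the other way, at 15.3 and 11.6 CPM. Of the 40 members 34 were higher in the library of 8 months, with a median log2 ratio of (CPM + 1) of 0.73, while that of all genes tested was -0.01. The ratio of Mki67 to Rag1 in CPM was 0.37 in the former and 1.55 in the latter, and 0.86, 0.88 and 1.27 in the other 3. Other thymic transcripts differed between them as well. Ccr7, a homing receptor of mature T cells, was at 4.58 and 0.577 CPM, and Aire, of the medullary epithelium, at 1.84 and 0.173 CPM. Ptcra, of the pre-T cell receptor, ran the other way, at 0.391 and 0.692 CPM, both low values. The summed CPM of the thymocyte markers was 85.8 and 70.6. For mature T and NK cell markers it was 105 and 61.7, and for thymic epithelium markers 143 and 78.1. These are single libraries with no replicate, and the part of these transcripts in the difference was not tested.

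**Figure D2:**
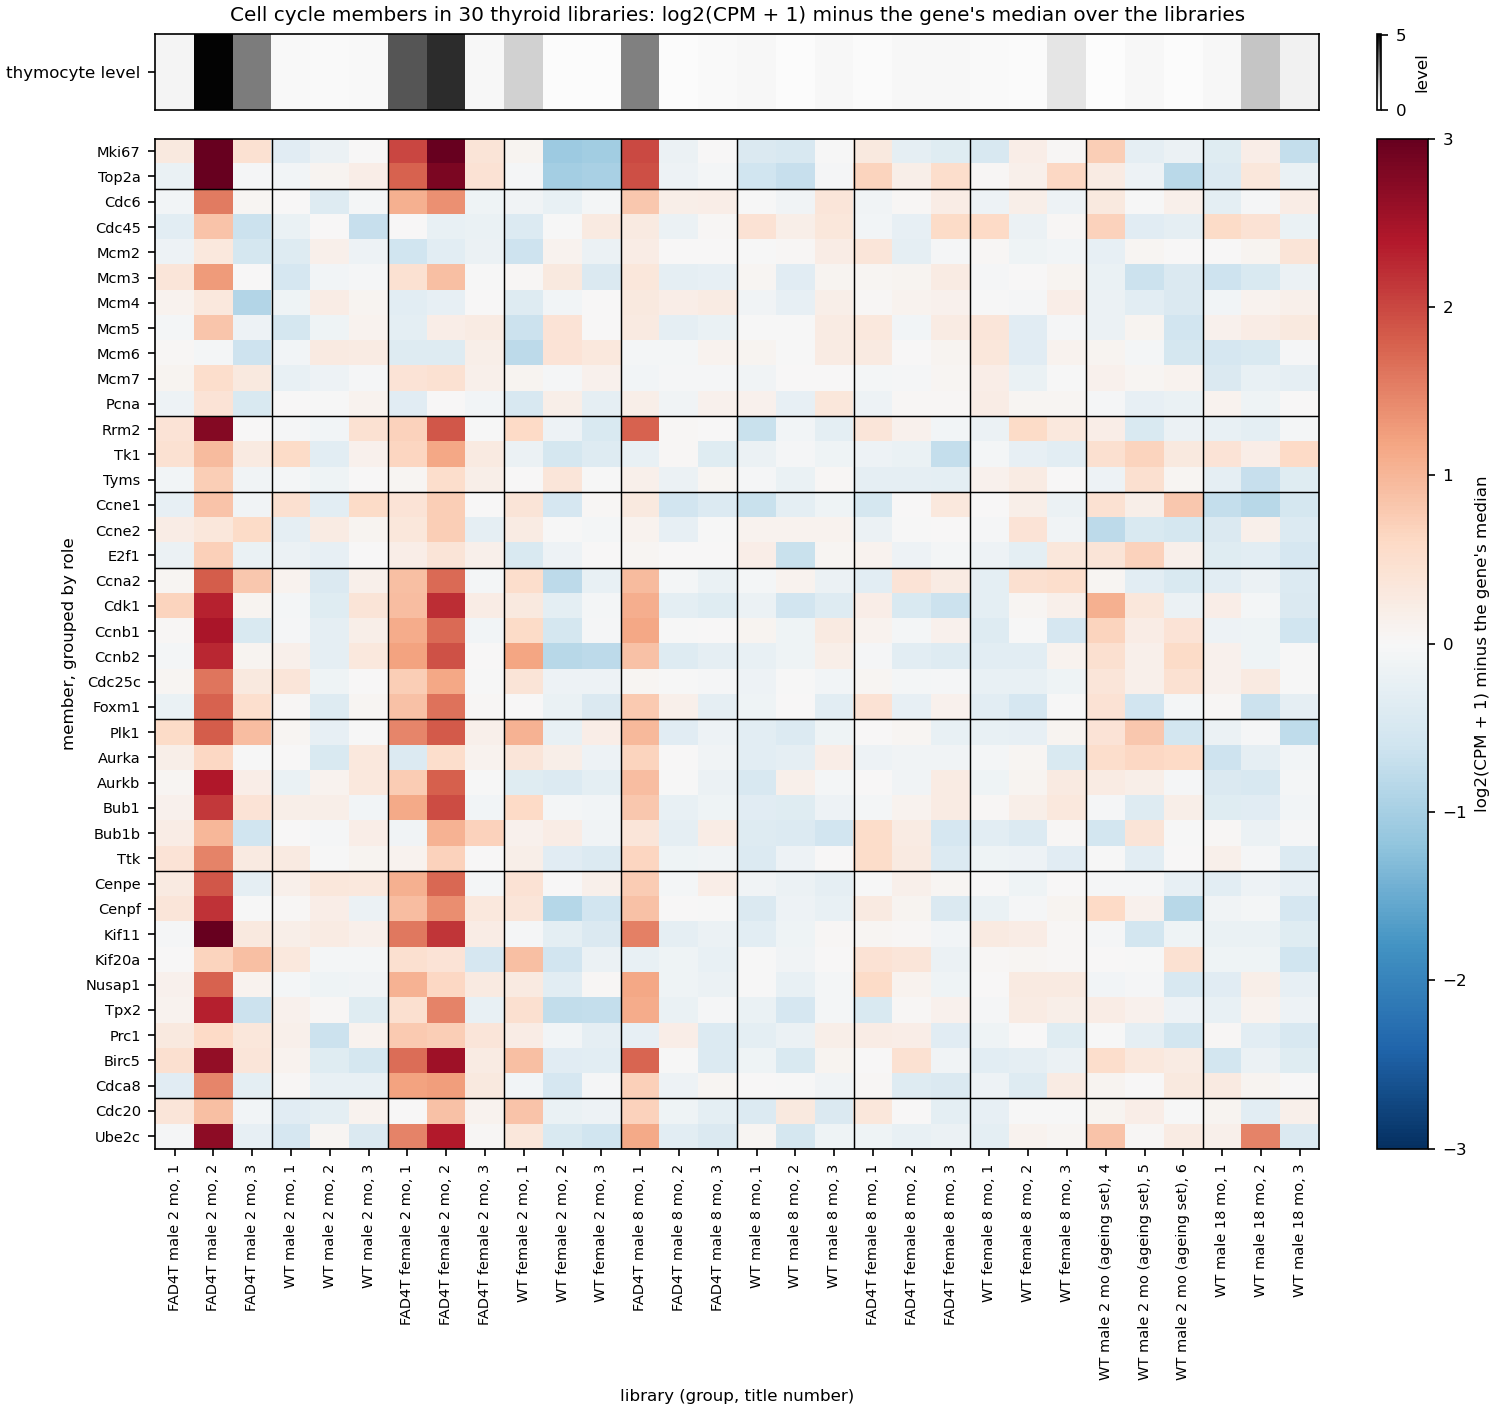
Log2(CPM + 1) of each member minus that gene's median over the 30 libraries (colour scale limited to 3 either way), with members in rows by role, libraries in columns by group and title number, and the thymocyte level in the strip above. The red columns are the 4 libraries with member levels of 2.69 to 3.58, and the rows of Mcm2, Mcm4, Mcm6 and Pcna stay pale in them.

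To ask how far each member went with thymocyte transcripts, a slope on the thymocyte level was fitted within groups over all 30 libraries, with 18799 genes tested. No member is among the 8 markers, but Cdc25c entered the fit only through libraries of high thymocyte level, as given below. Of the 40 members 25 (62.5%) rose with the thymocyte level and 0 fell, at adjusted p under 0.05 in edgeR's quasi-likelihood test, against 7.96% of all genes that rose and 12.3% that fell. The median slope of the 40 was a log2 change of 0.42 per unit of thymocyte level, and that of all genes tested was 0.01. DESeq2 called 26 members higher. The other lists moved too: 8 of 9 tested markers of mature T and NK cells and 5 of 6 of thymic epithelium passed, with median slopes of 1.01 and 1.07. Of 6 B cell markers 4 were higher and 3 passed, in both directions, with a median of 0.48. All 6 skeletal muscle markers were higher with a median of 1.0, and 0 passed in edgeR (4 at an unadjusted p under 0.05). Of the C cell and endothelial markers 2 each passed, with medians of -0.05 and -0.04. For erythroid cells 0 of 5 passed in edgeR (0 at an unadjusted p under 0.05). Among the 8 follicle cell markers 4 passed in edgeR and 1 was higher. Tg, Iyd and Foxe1 fell, and the median of the 8 was -0.22. The part of these cells in the members' slopes was not tested.

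By role, most genes of S phase, G2 and mitosis rose and most fork genes did not pass. Both marks of cycling cells rose, Top2a by 0.79 ± 0.09 (SE, adjusted p = 2.49e-06, edgeR) and Mki67 by 0.75 ± 0.09. All 6 genes of S phase, G2 and mitotic entry rose: the cyclins Ccnb1 (0.77), Ccnb2 (0.75) and Ccna2 (0.49), the phosphatase Cdc25c (0.74), the kinase Cdk1 (0.52) and the transcription factor Foxm1 (0.42). Of the 6 mitotic kinases and checkpoint genes Bub1 (0.80), Aurkb (0.66) and Plk1 (0.51) rose. Ttk had a slope of 0.47 ± 0.20, Aurka 0.13 ± 0.08 and Bub1b 0.10 ± 0.08. Of the 9 spindle, kinetochore and midzone genes 8 rose. These were Birc5 (0.77), the spindle motor Kif11 (0.68 ± 0.08, the third smallest p), Tpx2 (0.59), Cenpf (0.50), Cdca8 (0.46), Cenpe (0.44), Nusap1 (0.39) and Kif20a (0.26). Prc1, which bundles midzone microtubules, had a slope of 0.06 ± 0.07. Ube2c had the steepest slope of all (0.86 ± 0.12). It shares 22.8% of its exon length with the muscle gene Tnnc2 on the other strand, whose part in the slope was not tested. Cdc20, the other gene of mitotic exit, had 0.21 ± 0.09.

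The genes of DNA synthesis divided. Rrm2, the regulated subunit of ribonucleotide reductase, rose by 0.60 ± 0.11 per unit, whereas the other nucleotide genes Tk1 (0.10 ± 0.05) and Tyms (0.09 ± 0.05) did not pass. Among the 9 licensing and fork genes Cdc6, the loader of the helicase, rose by 0.43, Mcm3 by 0.20 and Mcm7 by 0.07. The slopes of Mcm2 (0.01 ± 0.05), Mcm4 (-0.01 ± 0.05), Pcna (0.04 ± 0.04), Mcm5 (0.07 ± 0.07), Mcm6 (-0.10 ± 0.05) and Cdc45 (0.17 ± 0.11) did not pass, and Mcm4, Mcm2 and Prc1 had the largest p-values of the 40. Of the G1 to S regulators Ccne1, a cyclin of S phase entry, rose by 0.32, while Ccne2 had 0.16 ± 0.06 and E2f1 had 0.14 ± 0.07. Without replicate 2 of the FAD4T males of 2 months, the library of the highest thymocyte level, 22 members rose, 21 of those that had risen before and Ccne2, while Mcm3, Mcm7, Ccne1 and Cenpf no longer passed. Mcm6 then fell by 0.16 (adjusted p = 0.048, edgeR).

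**Figure D3:**
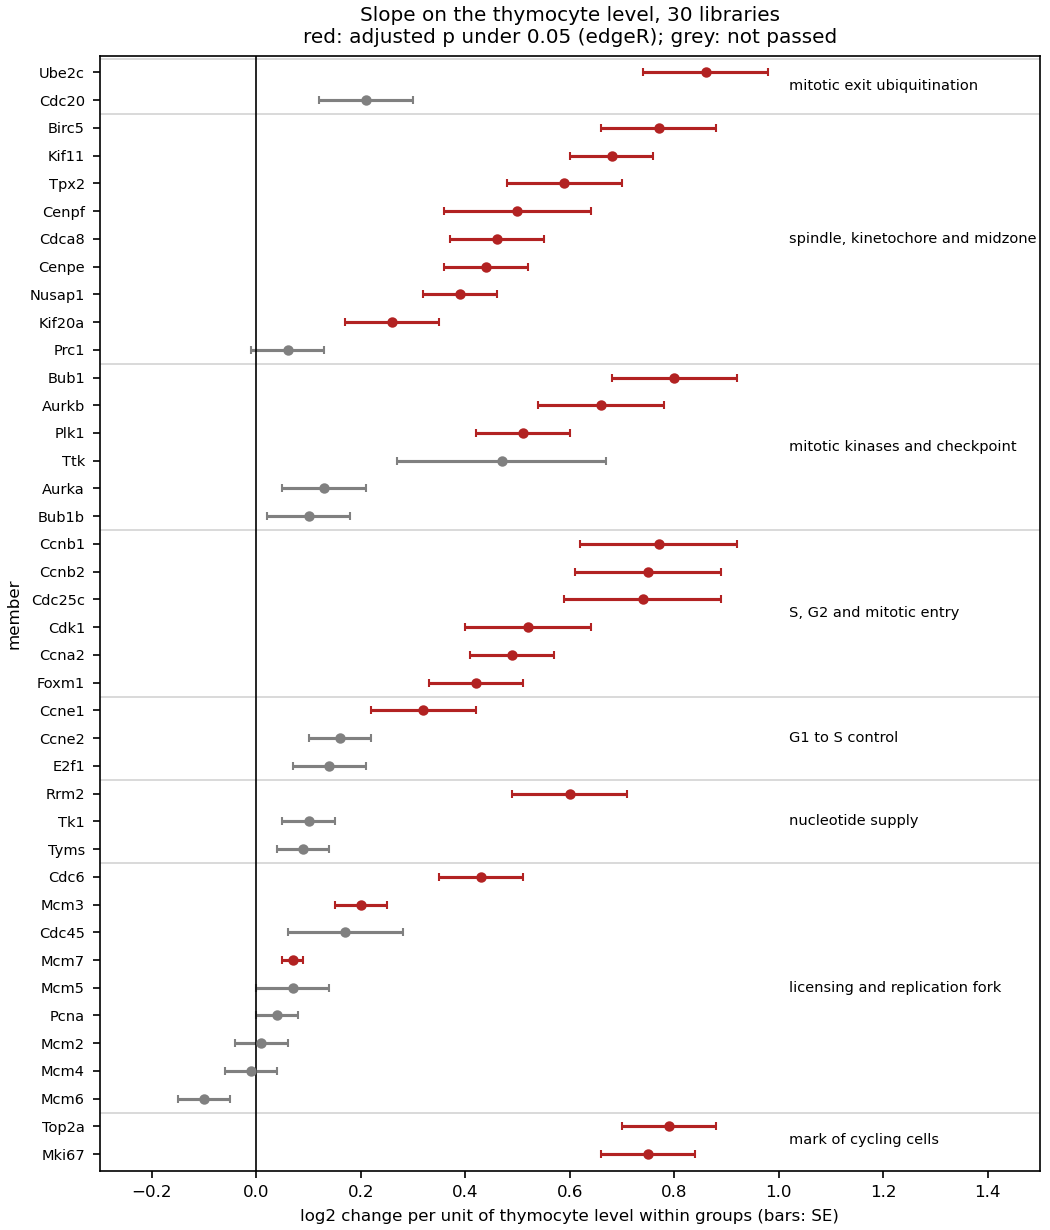
Log2 change per unit of thymocyte level within groups for each of the 40 members, with bars of 1 SE, ordered by role; red points passed an adjusted p of 0.05 in edgeR. The points of mitotic roles reach 0.86 (Ube2c), and those of Mcm2, Mcm4 and Pcna sit at 0.01, -0.01 and 0.04.

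Without the 5 libraries no member's slope was called. In a fit of the other 25, with thymocyte levels up to 1.73, 0 of 40 members passed in edgeR, and 35 of 19881 genes rose. An unadjusted p under 0.05 was reached by 12 of the 40 members, against 13% of all genes in that fit. No other tool was run on the 25. The median slope of the members was 0.23, against 0.01 for all genes, and 30 of the 40 slopes were positive. The smallest adjusted p was 0.11 for Ube2c. Across the 25 libraries Mki67 had a Pearson r of 0.24 with the thymocyte level (permutation p = 0.255, adjusted 0.255) and a Spearman rho of 0.19 (permutation p = 0.35, adjusted 0.35). Top2a had an r of 0.30 (permutation p = 0.138, adjusted 0.255) and a rho of 0.30 (permutation p = 0.148, adjusted 0.296). Adjustment is by Benjamini-Hochberg over the 2 genes. Without the 2 libraries farthest from the median r was 0.08 for Mki67 and 0.37 for Top2a. These relations did not pass, which does not show that there is none.

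The same division showed in part in how the members went with each other, given as descriptions over libraries that share groups. Mki67 correlated with the mean of the other members at r = 0.97 over the 30 libraries and at 0.81 over the 25. Kif11 did so at 0.95 and 0.43, and Top2a at 0.94 and 0.59. Mcm2 stood at -0.09 and -0.51, Mcm6 at -0.24 and -0.23, Mcm4 at 0.05 and -0.19 and Pcna at 0.19 and -0.30. The fork genes Mcm3 (0.79 and 0.20) and Mcm7 (0.68 and 0.36) stood above these 4. Other members did not keep to the division. The fork gene Cdc6 stood at 0.89 and 0.10. The mitotic genes Cdca8 (0.84 and 0.04) and Bub1b (0.60 and 0.16) were below Mcm7 over the 25. Among 15337 genes of at least 1 CPM on average, those outside the list most like the members' level were Bcl11b (r = 0.942), Cdca3 (0.938), E2f2 (0.931), Cenpa (0.927) and Gfi1 (0.927) over 30 libraries. Over the 25 their r was 0.498, 0.673, 0.417, 0.805 and 0.357. Dntt ranked at 17 with 0.884 and Rag1 at 49 with 0.857. The 5 genes were picked by their r over the 30 libraries, so a lower r without the 5 extreme libraries follows in part from that choice.

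The comparison of FAD4T with wild type at 2 months asks whether the genotype shifts these genes in the young gland. In males, 36 of 40 members were higher in FAD4T, with a median log2 fold change of 1.20 where all 18493 genes had 0.02, but 0 members and 0 genes (0%) passed an adjusted p of 0.05 in edgeR. At an unadjusted p under 0.05, 19 members (47.5%) were higher and 0 lower, against 8.91% and 5.58% of all genes. DESeq2 called 1 member, Mcm7, of 102 genes. Groups did not overlap, with FAD4T higher, for 9 members, and with FAD4T lower for 0, against 6.42% and 5.68% of all genes. The FAD4T group contains 2 libraries of high thymocyte level, and all 8 thymocyte markers were higher in it, with a median of 6.36 and a smallest adjusted p of 0.343 in edgeR. Their part in the members' difference was not tested. Fits without those libraries and with the level as a covariate are given below. All libraries of high thymocyte level are FAD4T, so these fits cannot tell the genotype apart from the thymocyte level.

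The 3 members of smallest p in males of 2 months were Mcm7, Plk1 and Mki67. Mcm7 (chr5:138164583-138172422, minus strand) had 29.9, 41.5 and 34.8 CPM in FAD4T replicates 1 to 3 and 24.3, 25.4 and 27.6 CPM in wild type. The groups did not overlap, and the fold change was 0.46 ± 0.12 on the log2 scale (SE, adjusted p = 0.343, edgeR). Its exons share 7.25% of their length with Ap4m1 on the other strand, and the reads were counted without strand. Plk1, a kinase that drives mitotic entry and spindle assembly, had 2.52, 7.32 and 3.52 CPM against 1.45, 0.989 and 1.34 CPM, a log2 fold change of 1.81 ± 0.58 (adjusted p = 0.343, edgeR). Mki67 had 4.93, 57.6 and 5.59 CPM against 2.85, 3.30 and 3.90 CPM, a log2 fold change of 2.76 ± 0.89 (adjusted p = 0.343, edgeR). All 3 genes were higher in each FAD4T library than in each wild-type one, and for Mki67 replicate 2 was far above the other 2. Top2a separated only in that library, with 2.25, 37.9 and 2.68 CPM against 2.52, 2.97 and 3.31 CPM.

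Rrm2 had 2.25, 15.4 and 1.45 CPM in the FAD4T males of 2 months and 1.40, 1.32 and 2.33 CPM in wild type. Mcm5 had 6.63, 13.1 and 6.04 CPM against 4.47, 6.20 and 7.44 CPM. Pcna had 49.5, 73.8 and 40.3 CPM against 55.9, 54.7 and 59.7 CPM. All 3 overlapped, and replicate 2 held the highest value of each. Ccne1 overlapped too, with 1.21, 3.74 and 1.45 CPM against 2.68, 1.12 and 2.91 CPM. Without replicate 2 of FAD4T the members' median was 0.17, and without replicate 1, the library of low thymocyte level, it was 1.56. With the thymocyte level as a covariate it was -0.03, and without the libraries of high thymocyte level 0.15.

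In females of 2 months 34 of 40 members were higher in FAD4T, with a median of 1.14 where all genes had -0.02, and again 0 members and 0 genes (0%) passed in edgeR. At an unadjusted p under 0.05, 18 members (45%) were higher and 0 lower, against 8.94% and 7.75% of all genes. DESeq2 called 4 members, Mki67, Aurkb, Top2a and Tk1, of 293 genes. Groups did not overlap, with FAD4T higher, for 11 members, and with FAD4T lower for 0, against 5.79% and 4.14% of all genes. Here too 2 of the 3 FAD4T libraries were of high thymocyte level. The 8 markers were all higher, with a median of 4.4 and a smallest adjusted p of 0.188 in edgeR. Among the wild-type females replicate 1 had a thymocyte level of 1.44, and replicates 2 and 3 had 0.16 each.

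Tk1 (chr11:117815526-117826092, minus strand), thymidine kinase of the salvage route to DNA precursors, had the smallest p. It had 27, 38.8 and 20.7 CPM in FAD4T females against 15.0, 11.4 and 12.7 CPM in wild type, with no overlap, and a log2 fold change of 1.14 ± 0.24 (SE, adjusted p = 0.153, edgeR). Replicate 3 of FAD4T, which had a thymocyte level of 0.34, was above all 3 wild-type libraries. In the slope fit Tk1 did not pass. Mki67 had 18.4, 37.3 and 5.31 CPM against 4.12, 1.27 and 1.36 CPM, a log2 fold change of 3.17 ± 0.91 (adjusted p = 0.171, edgeR). Aurkb had 1.78, 4.68 and 0.635 CPM against 0.290, 0.242 and 0.340 CPM, a log2 fold change of 2.98 ± 0.89 (adjusted p = 0.174, edgeR). For both the groups did not overlap, and replicates 1 and 2 were well above replicate 3. Top2a behaved alike, with 11.7, 25.6 and 4.10 CPM against 2.67, 0.845 and 0.906 CPM.

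Of the 9 licensing and fork genes Cdc6 (1.49) and Mcm7 (0.30) were higher at an unadjusted p under 0.05, and Mcm7 did not overlap: its mean was 36.4 ± 4.16 CPM in FAD4T females, with a lowest value of 31.7, and 29.6 ± 1.68 CPM (SD, n = 3 each) in wild type, with a highest value of 30.9. Pcna had 43.3, 55.5 and 52.6 CPM in FAD4T and 39.3, 63.3 and 45.5 CPM in wild type, and Mcm5 had 5.40, 8.08 and 8.31 CPM against 4.01, 9.48 and 6.91 CPM. Rrm2 had 2.95, 7.85 and 1.44 CPM against 2.67, 1.21 and 0.793 CPM, and Ccne1 had 2.50, 3.40 and 1.62 CPM against 2.44, 0.845 and 1.70 CPM. Pcna, Mcm5, Rrm2 and Ccne1 all overlapped. Single libraries decided the calls of this comparison. Without wild-type replicate 2 or 3 edgeR called 100 and 130 genes and 0 members, and without FAD4T replicate 3 it called 3001 genes and 13 members, with a members' median of 1.55. The 13 were Top2a (3.65), Mki67 (3.61), Aurkb (3.42), Ube2c (3.16), Kif11 (2.82), Bub1 (2.39), Cdk1 (2.36), Cdca8 (2.17), Cdc6 (1.89), Foxm1 (1.88), Ccna2 (1.75), Cenpe (1.55) and Tk1 (1.32). Both FAD4T libraries left were of high thymocyte level. Without the libraries of high thymocyte level instead, which leaves FAD4T replicate 3 alone in its group, the members' median was 0.12. With the thymocyte level as a covariate it was 0.05.

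Among the roles the marks of cycling cells had the largest medians at 2 months, 2.52 in males and 3.20 in females. The genes of S phase, G2 and mitotic entry had 1.76 and 1.66, and the 9 licensing and fork genes 0.46 and 0.03. None of these role members passed. Of 72 other cell cycle genes, from a list of G1 cyclins and kinases, inhibitors and pocket proteins, and further replication and mitotic genes, 0 passed in either sex. In males 56 were higher (median 0.40), with 19 higher and 2 lower at an unadjusted p under 0.05, against 8.91% and 5.58% of all genes. The smallest p belonged to the centromeric histone Cenpa (2.21), Mcm10 (1.43) and Cdca3 (2.52). In females 58 were higher (median 0.45), with 26 higher and 1 lower at an unadjusted p under 0.05, against 8.94% and 7.75% of all genes, led by the repressor E2f7 (1.66), Mcm10 (1.61) and Cdc25b (0.69).

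**Figure D4:**
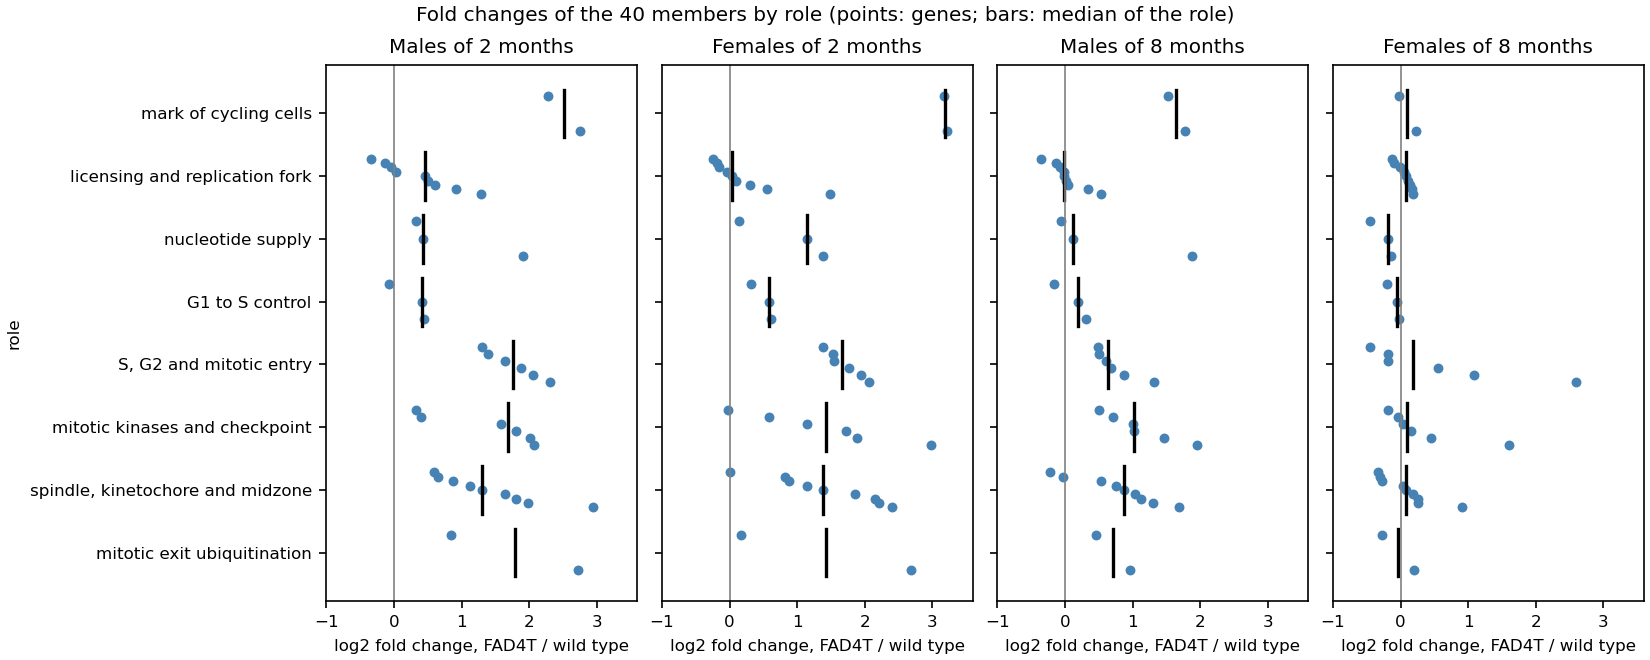
Log2 fold change of FAD4T over wild type for each of the 40 members by role, in males and females of 2 and 8 months; points are genes and bars are the medians of a role. No point passed an adjusted p of 0.05 in edgeR. The median of the cycling marks goes from 3.20 in females of 2 months to 0.10 in females of 8 months.

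At 8 months the males still had 31 of 40 members higher in FAD4T (median 0.53 against 0.01 for all genes), and 0 members and 0 genes (0%) passed in edgeR. At an unadjusted p under 0.05, 1 member (Rrm2) was higher, 2.5% of the 40, against 1.04% of all genes. DESeq2 called 0 members. Groups did not overlap for 5 members with FAD4T higher (Rrm2, Bub1b, Cenpf, Mcm4 and Cenpe) and for 1 with FAD4T lower (Kif20a), against 5.27% and 5.46% of all genes. Rrm2 had 7.32, 1.5 and 1.47 CPM in FAD4T and 0.533, 1.31 and 0.983 CPM in wild type, with no overlap (log2 fold change 1.88 ± 0.83, adjusted p = 1, edgeR). Bub1 had 1.5, 0.215 and 0.304 CPM against 0.118, 0.105 and 0.289 CPM, and Top2a had 13.3, 2.36 and 2.59 CPM against 1.48, 1.31 and 2.66 CPM. Both overlapped. Their log2 fold changes were 1.96 ± 1.0 and 1.77 ± 0.93 (SE, adjusted p = 1 for both, edgeR). In these genes, and in Mki67 with 18.0, 3.28 and 3.85 CPM against 2.60, 2.46 and 3.82 CPM, FAD4T replicate 1 stood alone. It is the library of thymocyte level 2.94, and without it the members' median was 0.01. Pcna had 62.8, 51.4 and 60.7 CPM against 61.1, 46.9 and 71.0 CPM, Mcm5 8.48, 5.59 and 5.83 CPM against 6.81, 6.86 and 8.38 CPM, and Ccne1 2.19, 0.752 and 0.963 CPM against 0.651, 1.15 and 1.39 CPM. All of these overlapped.

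Females of 8 months, whose 6 libraries all had low thymocyte levels, showed no shift of the list. Of the 40 members 21 were higher and 19 lower (median 0.04 against -0.01), and 0 passed in edgeR or in DESeq2. Over all genes 0% rose and 0.0216% fell. Groups did not overlap for 2 members with FAD4T higher (Cdc25c and Birc5) and for 2 with FAD4T lower (Tyms and Pcna), against 5.75% and 7.28% of all genes. Tyms, thymidylate synthase, was the 1 member lower at an unadjusted p under 0.05, and 0 were higher, against 3.16% and 1.5% of all genes. It had 7.92, 7.89 and 7.79 CPM in FAD4T and 10.8, 11.8 and 9.79 CPM in wild type, with no overlap (log2 fold change -0.45 ± 0.21, adjusted p = 1, edgeR). Cdc25c had 0.220, 0.135 and 0.137 CPM against 0, 0 and 0.0653 CPM, and Ttk had 0.953, 0.607 and 0 CPM against 0.226, 0.202 and 0.0653 CPM. These values are at or near the limit that a count of 0 allows, so no fold is read from them. Mki67 had 4.91, 3.04 and 2.73 CPM against 2.48, 4.51 and 3.98 CPM, and Top2a 4.99, 3.24 and 4.37 CPM against 2.82, 3.17 and 4.76 CPM. Pcna (50.2, 56.7 and 56.6 CPM against 64.9, 57.5 and 57.4 CPM) did not overlap, with FAD4T lower. Rrm2 had 2.13, 1.69 and 1.3 CPM against 1.18, 2.63 and 2.02 CPM, Mcm5 8.80, 6.48 and 8.40 CPM against 9.08, 5.25 and 6.66 CPM, and Ccne1 0.807, 1.62 and 2.25 CPM against 1.64, 1.95 and 1.31 CPM. These 3 overlapped. Of the 72 other cell cycle genes 0 passed at 8 months in either sex. Those of smallest p were Melk (1.46), Rfc4 (-0.51) and Nuf2 (1.85) in males and Cdkn2c (-0.42), Rfc3 (-0.42) and Melk (1.07) in females.

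Whether the FAD4T difference itself differed between sexes or ages was tested as an interaction, in contrasts that share their groups with those above. By edgeR 0 members and 0 genes (0%) passed in any of the 4, and DESeq2 called 0 members. At an unadjusted p under 0.05 1 member (Tk1) was lower in males than in females of 2 months and 0 were higher, against 1.78% and 2.24% of all genes. Between the sexes at 8 months 0 members reached it, against 1.66% of genes higher and 0.335% lower. Between the ages in males 1 member (Mcm7) was lower at 8 months and 0 were higher, against 2.83% and 2.15% of genes. Between the ages in females 8 members (20%) were lower at 8 months and 0 higher, against 4.63% and 3.59% of genes. The 8 were Tk1, Mki67, Cdca8, Aurkb, Kif11, Top2a, Cdk1 and Ube2c, with log2 differences for Tk1 and Mki67 of -1.28 ± 0.34 and -3.20 ± 1.25 (SE) and adjusted p of 0.564 and 0.569 in edgeR. Of the 72 other genes 0 passed in these contrasts. Those of smallest p were Cdc25b, E2f7 and Cdkn1b (-0.74, -1.36, -0.50) and Pbk, Ndc80 and Rfc3 (2.56, 2.37, 0.62) between the sexes at 2 and at 8 months. Between the ages they were Mcm10, Cdt1 and Cenpa (-1.33, -0.91, -1.65) in males and Cdkn2c, E2f7 and Cdc25b (-0.88, -1.71, -0.72) in females.

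In wild-type mice alone the list was compared between 8 and 2 months. These contrasts use the same wild-type libraries as the FAD4T ones. In males 0 members passed, where 0.422% of genes rose and 0.27% fell, and the median was -0.09. In females 0 members passed, where 0.205% of genes rose and 0.0487% fell, and the median was 0.05. In males 0 members reached an unadjusted p of 0.05, against 6.15% of genes higher and 5.52% lower, and in females 0 did, against 4.17% and 4.37%. DESeq2 called 0 members in either. Groups did not overlap for 1 member higher at 8 months (Cdc45) and 4 lower (Bub1b, Bub1, Cenpe and Kif11) in males, against 11.6% and 9.52% of genes, and for 3 higher and 0 lower in females, against 5.83% and 6.34%. Ccne1 had the smallest p in males (-1.07 ± 0.54, adjusted p = 0.46, edgeR). Of the 72 other genes 0 passed, those of smallest p being Cdc25b (-0.58), Racgap1 (-0.98) and Wee1 (-0.66) in males and Cdkn2c (0.61), Cks1b (0.76) and Mybl2 (-1.01) in females.

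The ageing set compares old with young males, 18 against 2 months, the young being those titled 4 to 6. Here 36 members could be tested, the others (Cdc25c, Aurkb, Bub1 and Ttk) being too low. Of the 36, 6 (16.7%) fell and 0 rose in edgeR, where 18.8% of all 16283 genes fell and 17.1% rose. The members' share of falls was thus near that of genes at large, and their median was -0.21 (-0.01 for all genes). Markers of other cells moved with age in the same fit. All 3 tested liver markers fell (median -2.71), and 3 of 6 adipocyte markers (median -2.10), 4 of 6 endothelial markers (median -0.72) and 3 of 8 markers of mature T and NK cells (median 1.29) passed in edgeR. Erythroid and skeletal muscle transcripts, of which 0 markers passed (0 at an unadjusted p under 0.05), varied within both groups: the summed CPM of 5 erythroid markers was 212, 172 and 577 at 2 months and 25.3, 658 and 31.3 at 18 months, and that of the muscle markers was 6300, 3790 and 28300 against 3190, 23300 and 4600. Their part in the result was not tested. DESeq2 also called 6, with Tyms in place of Ccnb1. The 6 were Ccne1, Aurka, Mcm7, E2f1, Birc5 and Ccnb1, and in each the 3 old libraries lay below the 3 young ones. On CPM scaled within this fit, as in all counts of groups that do not overlap, 9 of the 36 separated with the old lower and 2 with the old higher (Mcm4 and Mcm5), against 26.4% and 24.9% of all genes. At an unadjusted p under 0.05, 7 were lower and 0 higher, against 24% and 22.4%.

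Ccne1 (chr7:38097984-38107534, minus strand) had 0.601, 0.475 and 0.809 CPM at 18 months and 2.57, 1.96 and 3.59 CPM at 2 months, a log2 fold change of -2.13 ± 0.42 (SE, adjusted p = 0.00545, edgeR), from 8 to 14 counts in the old libraries. The other 2-month males had 2.68, 1.12 and 2.91 CPM, and those of 8 months 0.651, 1.15 and 1.39 CPM. The old libraries were below all young ones of both sets. Aurka, the kinase of spindle poles, had 1.20, 1.78 and 2.20 CPM against 3.86, 4.23 and 4.07 CPM (-1.27 ± 0.33, adjusted p = 0.0169, edgeR). The other 2-month males had 2.40, 1.45 and 3.20 CPM, which overlaps the old group. Mcm7 had 20.8, 24.3 and 23.2 CPM against 31.0, 29.7 and 30.4 CPM (-0.45 ± 0.13, adjusted p = 0.0228, edgeR), and 24.3, 25.4 and 27.6 CPM in the other 2-month males. E2f1, a transcription factor of S phase genes, fell by 1.17 on the log2 scale, the survivin gene Birc5 by 1.64 and cyclin B1 (Ccnb1) by 1.9, the last with an adjusted p of 0.0487 in edgeR. With all 6 young males as controls 1 member passed, Ccne1 (-1.98, adjusted p = 0.0207, edgeR), and 1417 genes did, of 5840 before. Single libraries weighed on the count as well. Without replicate 5 of the young males, or without replicate 1 of the old ones, Ccne1 was the 1 member called. Without old replicate 3 there were 2 (Ccne1 and Aurka), without young replicate 6 there were 3 (also E2f1), and without old replicate 2 there were 4 (Ccne1, Aurka, Mcm7 and Birc5). In Aurka, Mcm7, E2f1, Birc5 and Ccnb1 the young males titled 1 to 3 all lay below those titled 4 to 6, though the labels give both the same age and sex. The 2 sets carry different titles, and what else sets them apart is not given in the labels.

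**Figure D5:**
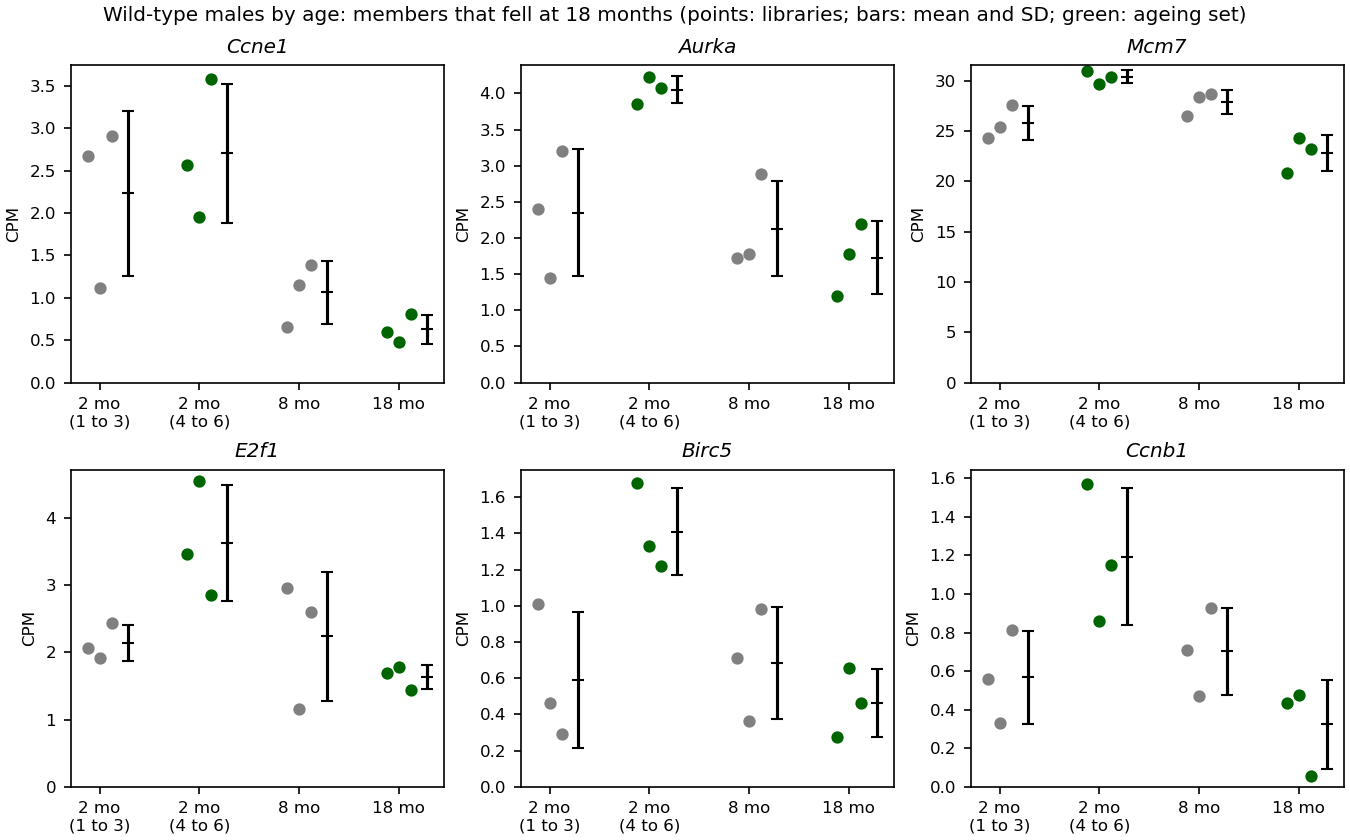
CPM of the 6 members that fell between 2 and 18 months, in wild-type males by age, with points for libraries, bars for mean and SD, and green for the 2 groups compared. For Aurka, Mcm7, E2f1, Birc5 and Ccnb1 the young males titled 1 to 3 lie below those titled 4 to 6, and for Ccne1 all young libraries lie above the old ones.

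The other genes with values asked of every library did not pass with age. Mki67 had 2.73, 4.58 and 1.96 CPM at 18 months and 7.11, 2.98 and 3.25 CPM at 2 months, and Top2a 1.80, 3.74 and 2.25 CPM against 3.47, 2.35 and 1.15 CPM. Pcna had 59.8, 50.5 and 55.5 CPM against 53.7, 46.8 and 48.6 CPM, Mcm5 7.59, 8.14 and 8.72 CPM against 5.93, 7.29 and 4.27 CPM, and Rrm2 1.09, 1.01 and 1.33 CPM against 1.79, 0.784 and 1.15 CPM. Only Mcm5 separated the groups, with the old ones higher. Replicate 2 of 18 months had the highest thymocyte level of the 25 low libraries, 1.73, and an erythroid level of 4.34. Its Ube2c value, 4.75 CPM, was the highest outside the libraries of high thymocyte level and above 3 of those 5. The overlapping Tnnc2 encodes a troponin, and the skeletal muscle level of that library was 11.64. Among the members Kif20a shares most, 33.2% with Cdc23, and counts of both are uncertain where reads were assigned without strand.

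Of the other cell cycle genes 61 could be tested with age, of which 5 rose and 16 fell in edgeR, against 17.1% and 18.8% of all genes. Falls of smallest p were the securin Pttg1 (-0.92), Cks2 (-1.89), the mitotic brake Wee1 (-1.04), the clamp loader subunit Rfc3 (-1.04), the histone chaperone subunit Chaf1b (-1.55) and the kinetochore gene Spc25 (-1.91). The rises were the pocket proteins Rbl2 (0.77), Rbl1 (0.80) and Rb1 (0.41), which hold back E2F factors, with Ccnd2 (0.87) and Pola1 (1.04). Of the 30 mitotic genes of that list 22 were tested, 8 fell and 0 rose.

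On the thymocyte level the same list had 31 rises and 2 falls among 72 genes in edgeR, against 7.96% and 12.3% of all genes, and 21 of its 30 mitotic genes rose. The smallest p were those of E2f2 (0.63), Tacc3 (0.31), Cdca3 (0.68), Kif23 (0.54), Cenpa (0.49) and E2f8 (0.69). The falls were Ccnd1 (-0.46 ± 0.09) and Ccnd2 (-0.32 ± 0.07), both D-type cyclins of G1. Of the 10 inhibitors and pocket proteins 2 rose and 0 fell, and of the 6 G1 cyclins and kinases 0 rose.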

How the data were processed

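Thyroid poly(A) RNA was sequenced from paired ends of dUTP-stranded libraries, per the labels' protocols. The authors counted reads per Ensembl 88 gene on GRCm38 with featureCounts 1.6.0 from STAR-named alignments, per the file headers, which show no strand option. The deposited values are raw counts. The submitters' processing notes name HISAT2 2.0.4, StringTie 1.3.4d and GRCm39 instead, and which applies to other steps is not given in the sources used here. Identifiers were matched to symbols for 50376 of 50686 genes.

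Genes were tested with edgeR 4.0.16 in R 4.3.3 (TMM, filterByExpr with a minimum count of 10, robust quasi-likelihood fit, Benjamini-Hochberg threshold 0.05). The 8 groups of 2 and 8 months were fitted together in 24 libraries (18493 genes, 16 residual df), the ageing set apart (16283 genes, 4 residual df). Slopes on the thymocyte level came from all 30 libraries with group means (18799 genes, 19 residual df). CPM per library were scaled by TMM over the 30 libraries, and fold changes came from the fits. DESeq2 1.42.0 was an alternative, and the others are described with their effects. No 2 libraries of a group held identical counts, and library totals of 14083958 to 20256049 set the precision. Replicate titles gave no pairing by source. Correlations of same-numbered deviations all passed 0.1 in males of 8 months (0.45, 0.44 and 0.55). They were not set against pairs of different number, so they do not show pairing. A blocked fit of FAD4T against wild type in these males called 0 genes, as did the fit without a block. Relations across libraries used 100000 permutations, two-sided.

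The members and lists were chosen with earlier results of these data known. Every member was accounted for by role. Values in all libraries were given for Mki67, Top2a, Pcna, Rrm2, Mcm5 and Ccne1, and in each comparison for the 3 members of smallest p. Members past the threshold were named, as were up to 6 other cell cycle genes per direction past it or the 3 of smallest p, and the 5 genes most like the members. Results of some marker genes are not reported here.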

Additional observations from a re-analysis of the deposited data

How the results depend on the processing

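Under DESeq2, genes called in the FAD4T comparisons numbered 102 (males of 2 months, with 1 member), 293 (females of 2 months, with 4 members) and 77 (females of 8 months). They numbered 489 and 267 in wild-type males and females of 8 against 2 months. In the interactions they were 33 and 9 (males against females at 2 and at 8 months) and 16 and 16 (ages in males and in females). With wild-type males 1 to 6 as controls, 59 genes were called for FAD4T males of 2 months, 340 for 8 against 2 months (members' median -0.36) and 1417 with 1 member for 18 against 2 months, and the log2 difference became 0.02 for Pcna in FAD4T males of 2 months and -0.02 for Top2a at 18 months. With no filter on low counts 78 genes were called in males of 8 against 2 months. With only the groups compared, 455 (8 against 2 months, males), 1 (females) and 0 (FAD4T females of 8 months) were called.

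With the replicate block FAD4T females of 8 months had 1 gene called, and the block changed no other count of calls by over 1.5 times and no call of a member outside the slope fit, where 23 of the 25 rising members still passed in the 27 libraries numbered 1 to 3. No paired analysis was possible for the ageing set because its groups share no number.

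Without the libraries of high thymocyte level the members' median was 0.15 and 0.12 in males and females of 2 months and -0.01 in males of 8 months. At 2 months this leaves a single FAD4T library in each sex, so values that use those groups rest on it. As interactions the members' median was 0.01 for males against females of 8 months. For 8 against 2 months it was -0.13 in males (from -0.57) and -0.14 in females (from -0.76). Genes called were 2 in FAD4T females of 8 months and 80 in wild-type females of 8 against 2 months. Differences that changed sign were Top2a -0.36 in males of 2 months, Rrm2 -0.07 and Ccne1 -0.01 in females of 2 months and Ccne1 -0.30 in males of 8 months. With the thymocyte level as a covariate the medians were -0.03, 0.05 and 0.09, and 209 (males) and 123 (females) genes were called for 8 against 2 months. Changes of sign were Top2a -0.73 and Rrm2 -0.20 in males of 2 months. In females of 2 months they were Pcna -0.06, Rrm2 -0.17, Mcm5 -0.06 and Ccne1 -0.18. Ccne1 was -0.11 in males and Mki67 0.12 in females of 8 months. In the 25 low libraries the slope fit called 36 genes and 0 members, with slopes of -0.20 (Pcna), -0.28 (Mcm5), -0.13 (Aurkb) and -0.08 (Foxm1). None of these single-gene differences was called before, except the slopes of Aurkb and Foxm1.

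Leaving out each library in turn moved the counts of genes called and the members' medians as follows. For FAD4T against wild type the ranges were 0 to 36 and 0.17 to 1.56 (males of 2 months), 0 to 3001 and 0.71 to 1.55 (females of 2 months, 0 to 13 members), 0 to 0 and 0.01 to 0.74 (males of 8 months) and 0 to 9 and 0.02 to 0.11 (females of 8 months). For 8 against 2 months they were 30 to 55 and -0.23 to 0.01 in males and 10 to 211 and 0.03 to 0.19 in females. For 18 against 2 months they were 3651 to 5470 and -0.31 to -0.10, with 1 to 5 members. In the interactions 0 to 1 genes were called, with medians of -0.89 to 0.39 and 0.01 to 0.59 (sexes at 2 and 8 months) and -1.14 to 0.38 and -1.16 to -0.46 (ages in males and females). For the slope, leaving out each library of high thymocyte level, chosen after seeing the data, gave 2139 to 5015 genes, medians of 0.33 to 0.43 and 22 to 25 members. Uncalled genes that changed sign ranged as follows: Top2a -0.25 to 2.76, Pcna -0.34 to 0.11 and Ccne1 -0.76 to 0.18 in males of 2 months. In females of 2 months Pcna ranged from -0.13 to 0.26 and Mcm5 from -0.19 to 0.41. In males of 8 months Ccne1 ranged from -0.30 to 0.59 and Pcna from -0.16 to 0.13. In females of 8 months the ranges were -0.33 to 0.14 (Mki67), -0.45 to 0.09 (Rrm2) and -0.41 to 0.26 (Ccne1). At 18 months they were -0.22 to 0.53 (Top2a) and -0.37 to 0.19 (Rrm2), and for the slope -0.03 to 0.05 (Pcna) and -0.02 to 0.10 (Mcm5). The cause was not tested. Depth limits Cdc25c, Ttk, Bub1 and Aurkb, which fall to a few counts or 0 in libraries of low thymocyte level.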
